A study of Mus musculus with 4 samples.

Results

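The Slc25 genes encode the mitochondrial carriers, and they were followed here across 2 sorted cell populations of the mouse colon. They were chosen by name alone, as every gene probe whose deposited gene name begins with Slc25a, a rule that uses no measured value. This gave 73 probes of 42 genes, among 41174 gene probes of 28307 genes on the array. A gene was tested where a probe of it was well above background on all arrays with a value in at least 1 population, and 34 of the 42 genes passed, among 14787 genes in all. The 8 that did not pass were Slc25a2, Slc25a15, Slc25a18, Slc25a21, Slc25a31, Slc25a34, Slc25a42 and Slc25a43.

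The cells were sorted from colonic crypts of adult Lgr5_EGFP-ires-CreERT2 knockin mice with normal colon. In these mice GFP is expressed from the promoter of Lgr5, whose product is a surface receptor found on stem cells at the crypt base. The population labelled Lgr5-GFP was sorted for GFP. The population labelled CD24hi was sorted for high binding of a PE-conjugated antibody to the surface protein CD24, and the design names it a goblet cell subset. Both RNAs were hybridised together on each of 4 two-colour arrays, as 2 replicates, with array 1 and swap 1 in replicate 1 and array 2 and swap 2 in replicate 2. Lgr5-GFP RNA carried Cy3 on both first arrays and Cy5 on both swaps. Slide and replicate coincide and cannot be told apart. Since no label ties a replicate to its own animal, the p-values cover no more than the differences between these samples, which may be technical ones.

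Mitochondrial carriers are small proteins of the inner mitochondrial membrane, built from repeats of a pair of membrane-spanning helices, and most exchange 1 solute of the matrix for another outside. They pass ADP and ATP, phosphate, keto acids, citrate, amino acids, cofactors, nucleotides and iron between the matrix and the cytosol, and so set which pathways can be split between these compartments. In the colon epithelium, absorptive cells oxidise short-chain fatty acids in their mitochondria, while goblet cells make and secrete large amounts of mucin protein.

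The markers of the sort ran against the labels. Lgr5 had log2 ratios (Lgr5-GFP-labelled RNA over CD24hi-labelled RNA) of -3.61 on array 1 and of -2.90 and -3.51 on array 2 and swap 2, with a mean of -3.41 ± 0.29 (SD, n = 2; limma, adjusted p = 5.92e-04). It was well above background in the Lgr5-GFP-labelled RNA on 2 of 3 arrays, against 3 of 3 in the CD24hi-labelled RNA. Cd24a, which encodes CD24, was at 2.12 ± 0.30 (limma, adjusted p = 7.45e-04). Each direction below is therefore that of the labels, and with the labels exchanged every higher becomes lower. Of the goblet cell markers, 7 of 9 measured were higher in the Lgr5-GFP-labelled RNA and 0 lower (median 2.82), and of the absorptive colonocyte markers 5 of 8 were higher and 0 lower (0.63). Of the stem cell markers 0 of 7 were higher and 6 lower (-2.09), and of the dividing cell markers 0 of 8 were higher and 8 lower (-2.93). Of the immune markers 1 of 10 was measured, of the stromal and endothelial ones 2 of 8, and of the red blood cell genes 1 of 4, with 1 stromal gene higher and none lower among them. The part of cell type and of cell division in the ratios of the Slc25 genes was not tested, and in such mixed RNA fewer cells of a type and less RNA per cell cannot be told apart. On swap 1 the scanner software had marked 75.3% of gene spots as outliers (64.4% of the Slc25 spots), against 0.23% to 0.40% on the other arrays. Such spots were left out, so 16 of the 34 Slc25 genes have no value there and their replicate 1 rests on 1 array that is not dye-balanced.

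Of the 34 Slc25 genes measured, 18 passed the test, 11 higher and 7 lower in the Lgr5-GFP-labelled RNA, and 16 did not (limma on the 2 replicate ratios, adjusted p under 0.05 over all genes tested). Of all genes tested, 47.3% were called, 21.7% higher and 25.6% lower, so the share of Slc25 genes called, 52.9%, lay near that of all genes. The same shares of all genes stand beside every group and list count below. Whether any group or list differs from all genes was not tested. Their median log2 ratio was -0.04, beside -0.07 over all genes tested, and single ratios ran from -1.40 for Slc25a4 to 1.71 for Slc25a35. Both replicates had the same sign for 31 of the 34, and the median difference between replicates was 0.13. A gene could enter through the population where it was brighter, as Slc25a40 did among those higher and Slc25a27 and Slc25a30 among those lower. Where all arrays of both populations had to be well above background, 28 Slc25 genes were measured, 10 higher and 5 lower (6222 of all 11920 genes called). The counts rest on how spots were treated. They were 2 higher and 0 lower where spots of non-uniform background were kept in the background fit (1386 of all genes called), 4 and 3 with marked spots kept (3747 of all genes), and 2 and 1 of 19 measured without array 1 (977 of 6021 genes). Under median centring of each array in place of loess, they were 6 and 10, the median of all genes moved to -0.27, and all calls split into 1828 higher and 5104 lower, in place of 3205 higher and 3782 lower.

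**Figure D1:**
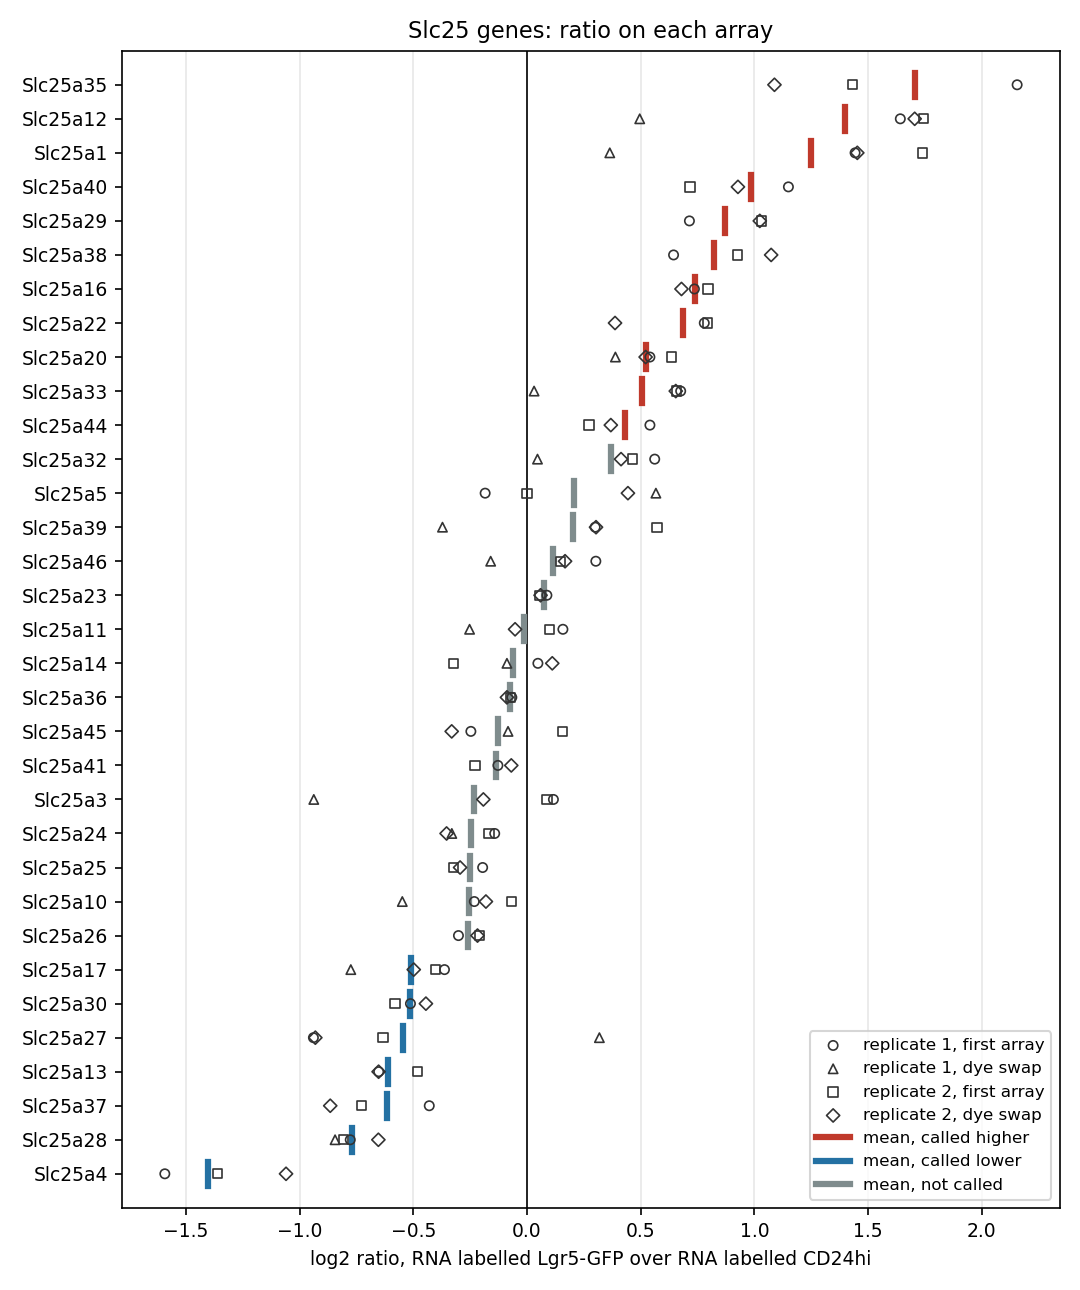
The log2 ratio of the measured Slc25 genes reported by name, Lgr5-GFP-labelled RNA over CD24hi-labelled RNA (horizontal axis), with genes ordered by their mean. Open symbols are single arrays and coloured bars the mean over 2 replicates, red for 11 genes called higher, blue for 7 called lower and grey for those not called. Triangles, swap 1, are missing for 16 genes. They lie well left of the other symbols for several genes, among them Slc25a12, Slc25a1, Slc25a33, Slc25a3 and Slc25a39, and right of them for Slc25a27.

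The carriers of amino acids all passed the test where measured, 5 higher and 1 lower of 6, beside 21.7% higher and 25.6% lower of all genes, and whether the group differs from other genes was not tested. Slc25a12 and Slc25a13 are closely related calcium-regulated carriers that export aspartate in exchange for glutamate, a step of the malate-aspartate shuttle, and they went opposite ways. For Slc25a12 (probe at chr2:71112979-71113038, minus strand, build mm9) the normalised spot signals, in arbitrary units, were 2096 and 181 on array 1 and swap 1 and 1657 and 1485 on array 2 and swap 2 in the Lgr5-GFP-labelled RNA, against 672, 128, 495 and 456 in the CD24hi-labelled RNA. Signals here and below were scaled to a shared distribution across arrays. Most gene spots were left out on swap 1, so signal levels there cannot be compared with those of other arrays. The log2 ratios of Slc25a12 were 1.64, 0.50, 1.74 and 1.70, all above 0 and with swap 1 lowest. The mean was 1.40 ± 0.46 (SD, n = 2), 2.63-fold higher in the Lgr5-GFP-labelled RNA (limma, adjusted p = 0.00298). A further 2 Slc25a12 probes did not pass the filter on dim probes and gave ratios of -0.01 and 0.0037. The Slc25a13 probe (chr6:5991482-5991541, minus strand) gave 512 on array 1 and 817 and 679 on array 2 and swap 2 in the Lgr5-GFP-labelled RNA, against 804, 1142 and 1067 in the CD24hi-labelled RNA. The signals of both groups overlapped across arrays, but within each array the Lgr5-GFP-labelled RNA was lower, at log2 ratios of -0.65, -0.48 and -0.65, and the mean of -0.61 ± 0.06 was 1.53-fold lower (limma, adjusted p = 0.0109). The 95% intervals of Slc25a12 (0.94 to 1.86) and Slc25a13 (-0.92 to -0.31) did not overlap, and the difference between the genes was not itself tested.

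The other 4 measured amino acid carriers were higher in the Lgr5-GFP-labelled RNA. Slc25a29, which carries basic amino acids such as arginine and lysine, had log2 ratios of 0.71, 1.03 and 1.02 on the 3 arrays with a value, with a mean of 0.87 (limma, adjusted p = 0.00506), and its second probe was at 1.12. Slc25a38, which brings glycine into the matrix for heme synthesis, was at 0.64, 0.93 and 1.07, with a mean of 0.82 (adjusted p = 0.00675). The glutamate carrier Slc25a22 was at 0.78, 0.80 and 0.39, with a mean of 0.69 (adjusted p = 0.00852). All 3 lay above 0 on every array with a value. Slc25a44, a carrier of branched-chain amino acids, was at 0.54, 0.27 and 0.37 and passed narrowly at 0.43 (adjusted p = 0.0402). Without swap 2 it was 0.41 (limma, adjusted p = 0.0656). It was called in only 7 of 13 tested alternatives, with ratios down to 0.23 and limma's adjusted p up to 0.288. The ornithine carriers Slc25a15 and Slc25a2 and the second glutamate carrier Slc25a18 were not measured.

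Enzymes that share these substrates were called in both directions, beside 21.7% higher and 25.6% lower of all genes. Of 9 measured genes of the malate-aspartate shuttle, the glycerol-3-phosphate shuttle and glutamate use, 2 were higher and 4 lower, with a median of -0.02. Gpt2, the mitochondrial alanine aminotransferase, was at 2.06 and Got1, the cytosolic aspartate aminotransferase, at 0.58. Gpd2, the mitochondrial glycerol-3-phosphate dehydrogenase, was at -0.81. Of 9 measured genes of ornithine use and the urea cycle, 4 were higher and 2 lower. Pycr1, which makes proline, was at 2.42 and the arginase Arg1 at 2.21, against -2.51 for Cps1 and -2.02 for Otc, which act in the matrix to make carbamoyl phosphate and citrulline. Cps1 and Otc were dim in the Lgr5-GFP-labelled RNA, well above background on 1 of 3 and 2 of 3 arrays, against 3 of 3 for each in the CD24hi-labelled RNA.

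**Figure D2:**
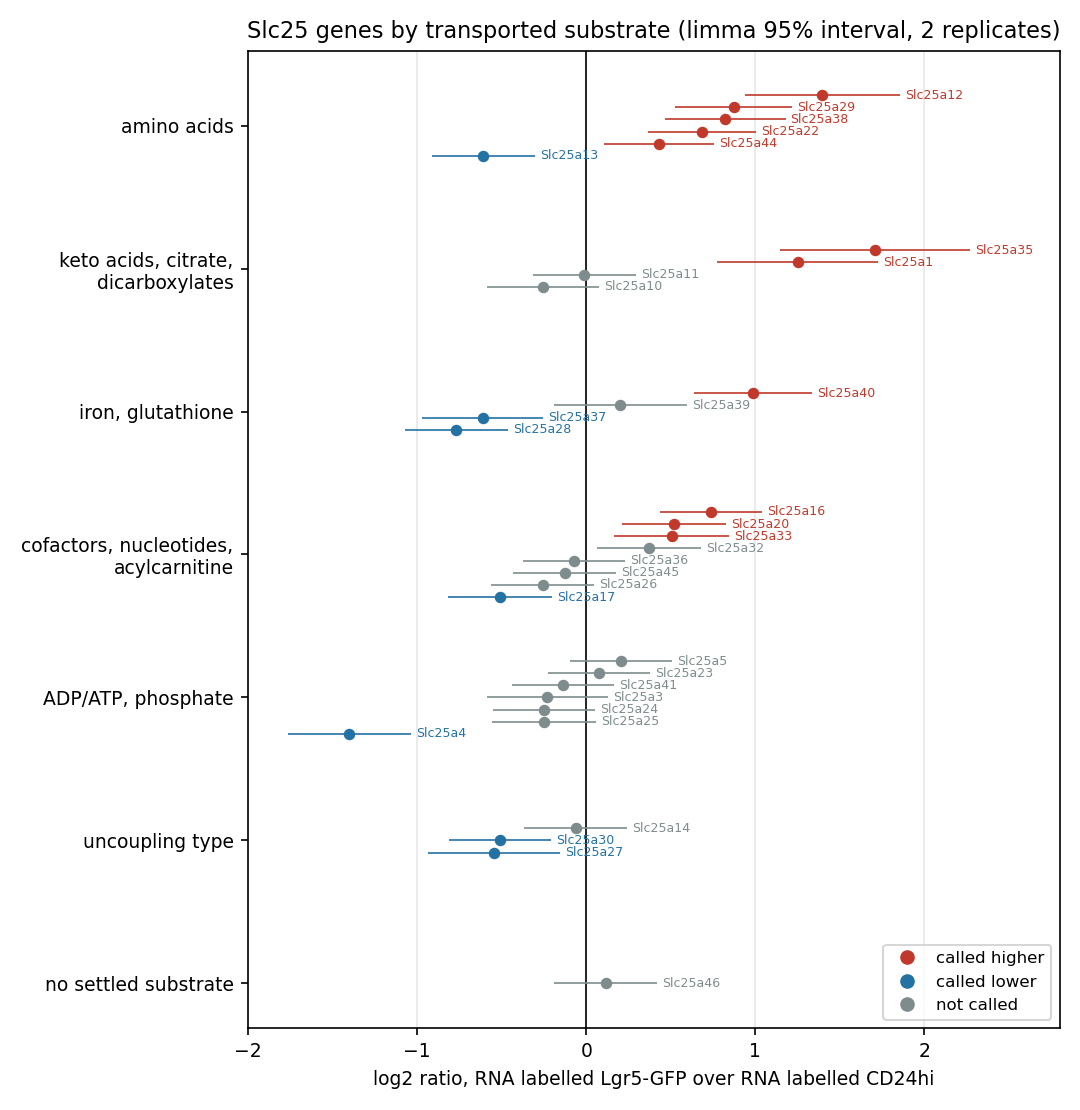
Mean log2 ratio of the measured Slc25 genes reported by name (Lgr5-GFP-labelled RNA over CD24hi-labelled RNA, horizontal axis), grouped by what they carry. Lines are limma's 95% intervals over 2 replicates, with red for called higher, blue for called lower and grey for not called; 5 of 6 amino acid carriers are red, and 6 of 7 genes of the ADP/ATP and phosphate group are grey.

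Among the carriers of keto acids, citrate and dicarboxylates, 2 of 4 measured were higher and 0 lower (50% called, beside 47.3% of all genes). Slc25a35 is related to the yeast oxaloacetate carrier, and its probe (chr11:68787730-68787789, plus strand) had signals of 2783 on array 1 and 2639 and 1916 on array 2 and swap 2 in the Lgr5-GFP-labelled RNA, against 625, 979 and 901 in the CD24hi-labelled RNA. The groups did not overlap, and the log2 ratios were 2.16, 1.43 and 1.09. The mean of 1.71 ± 0.63, 3.27-fold higher, was the largest ratio among the Slc25 genes measured (limma, adjusted p = 0.00298). Its second probe had the same sign at less size, with 0.83, 0.75 and 0.71.

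Slc25a1, the citrate carrier, exports citrate to the cytosol, where it feeds fatty acid and sterol synthesis. Its probe (chr16:17925603-17925662, minus strand) had signals of 4860 and 226 on array 1 and swap 1 and 4873 and 4140 on array 2 and swap 2 in the Lgr5-GFP-labelled RNA, against 1788, 176, 1460 and 1513 in the CD24hi-labelled RNA. The log2 ratios of 1.44, 0.36, 1.74 and 1.45 were all above 0, and the mean of 1.25 ± 0.49 was 2.38-fold higher (limma, adjusted p = 0.00450). The dicarboxylate carrier Slc25a10 (-0.26) and the oxoglutarate carrier Slc25a11 (-0.01) did not pass the test, with 95% intervals of -0.59 to 0.08 and -0.32 to 0.29. The oxodicarboxylate carrier Slc25a21 and Slc25a34 were not measured. Of 8 measured partners in citrate export and fatty acid synthesis, 1 was higher and 1 lower (25% called, beside 47.3% of all genes). These were Acly, the ATP citrate lyase that splits exported citrate, at 1.06 and Idh1, the cytosolic isocitrate dehydrogenase, at -1.04.

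Of the carriers that supply ADP, ATP and phosphate, 0 of 7 measured were higher and 1 was lower (14.3% called, beside 47.3% of all genes). That gene was Slc25a4, which encodes the ADP/ATP translocase of heart and muscle. Its brightest probe gave 3328 on array 1 and 3871 and 4508 on array 2 and swap 2 in the Lgr5-GFP-labelled RNA, against 10040, 9952 and 9398 in the CD24hi-labelled RNA. The groups did not overlap, and the log2 ratios were -1.59, -1.36 and -1.06. The mean of -1.40 ± 0.27 was 2.64-fold lower in the Lgr5-GFP-labelled RNA (limma, adjusted p = 0.00157). The second Slc25a4 probe had a value on all 4 arrays and was low on each, at -1.25, -1.52, -0.9999 and -1.10.

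Slc25a5 encodes the second of the measured ADP/ATP translocases, the form common in dividing cells. Its signals were 109859 and 59361 on array 1 and swap 1 and 104135 and 117444 on array 2 and swap 2 in the Lgr5-GFP-labelled RNA, against 124819, 40076, 104123 and 86344 in the CD24hi-labelled RNA. The groups overlapped, and no spot was saturated. The log2 ratios differed between dye orientations, with -0.18 and 0.00015 on the first arrays and 0.57 and 0.44 on the dye swaps. The mean of 0.21 did not pass the test (limma, adjusted p = 0.214, 95% interval -0.10 to 0.51), and Slc25a4's interval was -1.77 to -1.04. The third translocase, Slc25a31, which is known from the testis, was not measured.

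The brightest probe of Slc25a4, which was called, and the probe of Slc25a5, which was not, resemble each other in sequence, which is why they are shown. The difference between these genes was not itself tested. Over 54 aligned bases, the Slc25a4 and Slc25a5 probes were identical at 45 (83.3%), the only pair of the 2585 pairs of probes of different Slc25 genes at 80% or more over at least 30 bases. Capitals mark the bases that differ within the aligned stretch. The second Slc25a4 probe lies at another place in the gene. Sequences are 5′ to 3′ as deposited, with positions of build mm9.
Slc25a4 probe, chr8:47292828-47292887, minus strand: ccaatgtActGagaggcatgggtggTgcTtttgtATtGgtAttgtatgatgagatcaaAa
Slc25a5 probe, chrX:34338475-34338534, plus strand: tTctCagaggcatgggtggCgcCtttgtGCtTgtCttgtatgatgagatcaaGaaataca
Slc25a4 second probe, chr8:47294441-47294500, minus strand: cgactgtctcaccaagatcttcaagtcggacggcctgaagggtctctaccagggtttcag
How far RNA of either gene binds the probe of the other was not tested.

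**Figure D3:**
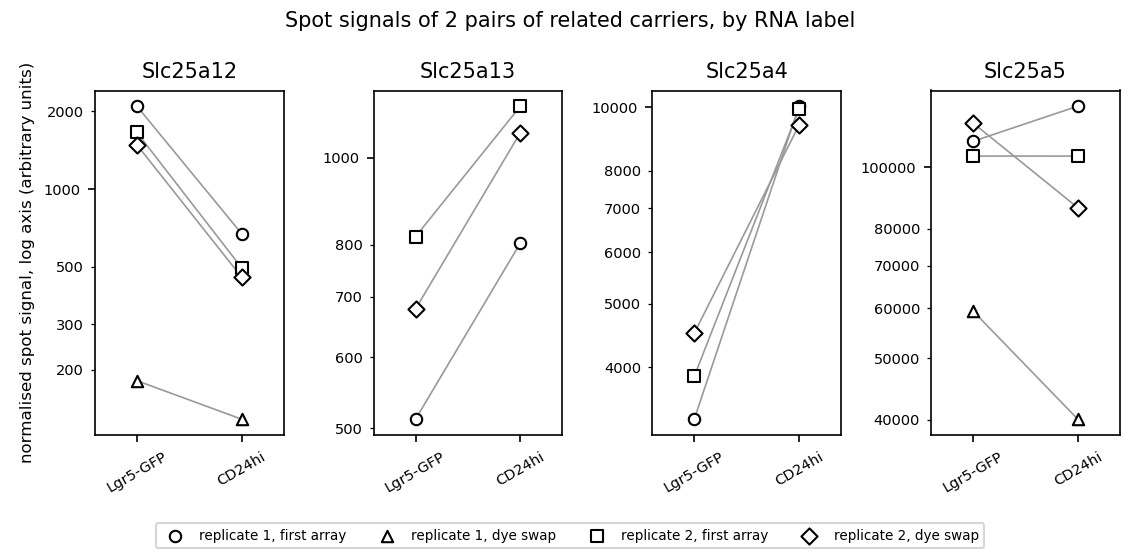
Normalised spot signal (log axis, arbitrary units, a scale of its own in each panel) of the probes of Slc25a12, Slc25a13, Slc25a4 and Slc25a5 in the Lgr5-GFP-labelled RNA (left) and the CD24hi-labelled RNA (right). Each line joins both channels of 1 array: all lines fall to the right for Slc25a12 and rise for Slc25a13 and Slc25a4, while those of Slc25a5 run both ways. Signal levels on swap 1 cannot be compared with those of the other arrays.

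The phosphate carrier Slc25a3, which brings in the phosphate that ATP synthase uses, was at 0.12, -0.94, 0.09 and -0.19 on the 4 arrays, with a mean of -0.23 (limma, adjusted p = 0.235), and its other 2 probes were at 0.02 and -0.19. The calcium-dependent carriers of ATP-Mg and phosphate, which adjust the adenine nucleotide content of the matrix, were at 0.07 for Slc25a23, -0.25 for Slc25a24, -0.25 for Slc25a25 and -0.14 for Slc25a41, and none passed the test. Slc25a24 had a second probe of the opposite sign (0.23), the other 2 probes of Slc25a25 were at -0.40 and -0.01, and Slc25a41 was well above background in the Lgr5-GFP-labelled RNA on 1 of 3 arrays, against 3 of 3 in the CD24hi-labelled RNA.

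Among the carriers of iron and glutathione, 1 of 4 measured was higher and 2 lower (75% called, beside 47.3% of all genes). Slc25a28 and Slc25a37 are the mitoferrins, which bring iron into the matrix for heme and iron-sulfur clusters, and both were lower in the Lgr5-GFP-labelled RNA. Slc25a28 was at -0.78, -0.84, -0.81 and -0.65 on the 4 arrays, with a mean of -0.77 ± 0.06, 1.71-fold lower (limma, adjusted p = 0.00506), and was no longer called without array 1 (-0.79, adjusted p = 0.128). Slc25a37 was at -0.43, -0.73 and -0.87 by its brightest probe, with a mean of -0.61 (adjusted p = 0.0183). The second Slc25a37 probe was at 0.06, and the mean over both, -0.28, was not called (adjusted p = 0.129). Slc25a40, a carrier of glutathione, was at 1.15, 0.72 and 0.93, with a mean of 0.99 ± 0.23 (adjusted p = 0.00361). It rests on 1 of its 4 probes, which in the CD24hi-labelled RNA was well above background on 2 of 3 arrays. Its close relative Slc25a39, which also carries glutathione, was at 0.30, -0.37, 0.57 and 0.30, with a mean of 0.20 (adjusted p = 0.342, but 0.37 and 0.0255 without swap 1), and its second probe was at 0.78. Of 15 measured genes of heme, iron-sulfur and iron handling, 3 were higher and 3 lower (40% called, beside 47.3% of all genes). Uros (0.83) and Fech (0.68), enzymes of heme synthesis, were higher, while another enzyme of that route was among those lower. Tfrc, the transferrin receptor (-1.30), was lower.

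The carriers of cofactors, nucleotides and acylcarnitine were mixed, with 3 of 9 measured higher and 1 lower (44.4% called, beside 47.3% of all genes). Slc25a16, linked to coenzyme A in the matrix, was at 0.74, 0.80 and 0.68, with a mean of 0.74, 1.67-fold higher (limma, adjusted p = 0.00565). Slc25a20 exchanges acylcarnitine for carnitine, the step that admits long-chain fatty acids to the matrix, and was at 0.54, 0.39, 0.63 and 0.52, with a mean of 0.52 (adjusted p = 0.0188). Slc25a33, a carrier of pyrimidine nucleotides, was at 0.68, 0.03, 0.66 and 0.65, with a mean of 0.50 (adjusted p = 0.0292), and its second probe was at 0.88. Slc25a20 and Slc25a33 were above 0 on all 4 arrays, but neither was called without array 1, where fewer genes were tested (0.48, adjusted p = 0.441, for Slc25a20 and 0.34, adjusted p = 0.634, for Slc25a33). Neither was called under median centring (0.23, adjusted p = 0.300, and 0.26, adjusted p = 0.286) or in the series table (0.57, adjusted p = 0.0688, and 0.42, adjusted p = 0.158).

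Slc25a17, which resides in peroxisomes and carries coenzyme A, FAD and NAD, was the member of the cofactor group that was lower. It was at -0.36, -0.77, -0.40 and -0.50, all below 0, with a mean of -0.51 (limma, adjusted p = 0.0203; without array 1 it was -0.61, adjusted p = 0.280, with fewer genes tested), and its other 2 probes were at -0.24 and -0.59. The folate and FAD carrier Slc25a32 lay just outside the threshold at 0.37 (adjusted p = 0.0554) and was called without swap 1 (0.50, adjusted p = 0.00710). The S-adenosylmethionine carrier Slc25a26 (-0.26), the pyrimidine nucleotide carrier Slc25a36 (-0.07) and Slc25a45 (-0.13) did not pass the test, and the coenzyme A carrier Slc25a42 was not measured. The second probe of Slc25a36 was at -0.45. Of the 8 measured carnitine shuttle partners of Slc25a20, 2 were higher and 0 lower (25% called, beside 47.3% of all genes). Those higher were Crat, the carnitine acetyltransferase (0.91), and Acadl, the long-chain acyl-CoA dehydrogenase (0.47).

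Of the 3 carriers named for their likeness to uncoupling proteins, 0 were higher and 2 lower (66.7% called, beside 47.3% of all genes). Slc25a30 was at -0.51, -0.58 and -0.44, with a mean of -0.51 (limma, adjusted p = 0.0186), and its second kept probe was at -0.21. Slc25a27 was at -0.94, 0.32, -0.63 and -0.93, with swap 1 the only array above 0 and a mean of -0.55 (adjusted p = 0.0350). It was -0.86 without that array (adjusted p = 6.56e-04), and it was not called without array 1 (-0.23, adjusted p = 0.778) or swap 2 (-0.47, adjusted p = 0.0521). Both genes were dim in the Lgr5-GFP-labelled RNA, where 2 of 3 arrays for Slc25a30 and 2 of 4 for Slc25a27 were well above background, against 3 of 3 and 4 of 4 in the CD24hi-labelled RNA. Both passed the filter through the CD24hi-labelled RNA alone, so the direction of their calls is not independent of the filter. Neither was measured where both populations had to be well above background. Slc25a14 was at -0.06 and did not pass. Slc25a46, a carrier relative of the outer membrane that acts in mitochondrial fission, was at 0.11 and did not pass either, with a second kept probe at 0.37. Of 5 carrier family members under other names, 3 were measured and all were called. Ucp2, an uncoupling protein (0.49), and Mtch1 (0.59) were higher and Mtch2 (-0.48) was lower, the last pair being outer membrane proteins.

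The respiratory chain and ATP synthase use the substrates that these carriers bring, and few of their genes were called. Of 61 measured genes of complexes I to IV, 5 were higher and 3 lower (13.1%, median -0.09), led by Cox8a (0.87) and Ndufv3 (0.73) above and Ndufa5 (-0.69) and Uqcrc2 (-0.68) below. Of 16 measured ATP synthase genes, 0 were higher and 1 lower (6.25%, median -0.15). That gene was Atpif1, the inhibitor of the enzyme, at -1.36. The share of all genes called was 47.3%, and whether any of these shares differ was not tested.

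The carriers are made in the cytosol and brought into the inner membrane by the TOM and TIM complexes. Of 16 measured genes of that route, 1 was higher and 5 lower (37.5% called, beside 47.3% of all genes, median -0.22). Timm8a1 (-1.21) and Timm9 (-1.14), small chaperones of the intermembrane space that escort carrier precursors, had the largest ratios among those lower, and Timm10b (0.997), another member of that chaperone family, was higher. Of 5 measured porins and subunits of the pyruvate carrier, Mpc1 of the pyruvate carrier was higher (0.52) and the porin Vdac1 lower (-0.49). Of 10 measured regulators of mitochondrial biogenesis, 0 were higher and 4 lower (40% called, median -0.28). Those lower were led by Myc, a transcription factor of cell growth (-2.39), and Tfam, which packages and transcribes mitochondrial DNA (-1.02). Whether the shares of these lists differ from the 47.3% of all genes was not tested.

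**Figure D4:**
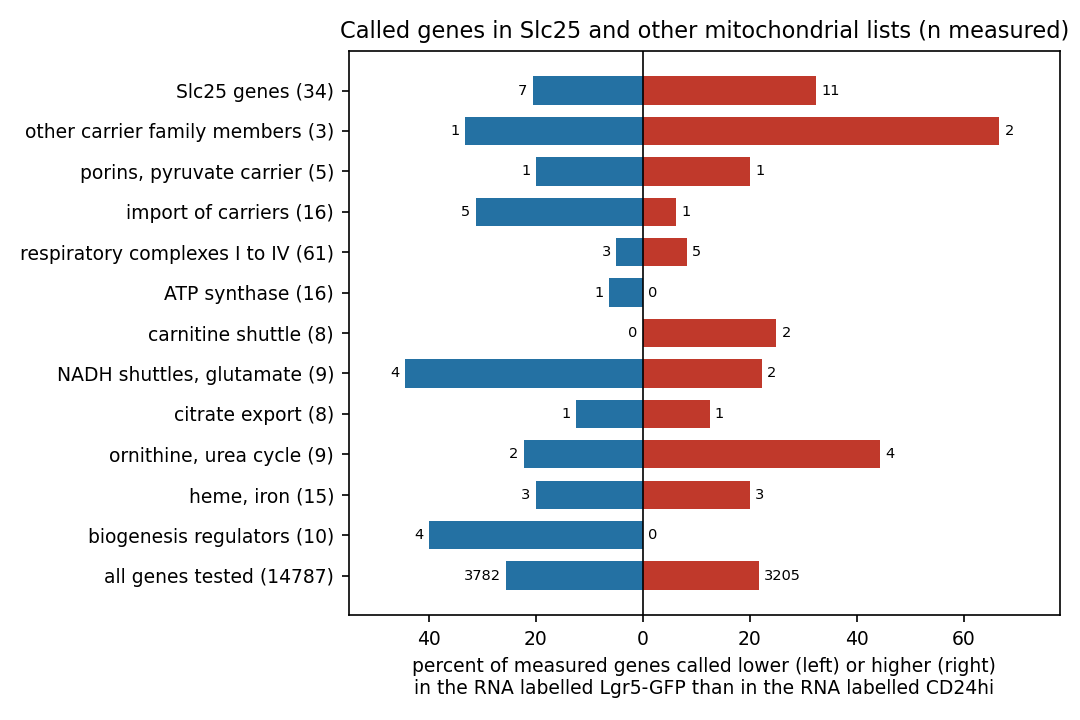
Percent of measured genes called higher (red, right of 0) and lower (blue, left of 0) in the Lgr5-GFP-labelled RNA than in the CD24hi-labelled RNA, with the number measured in brackets and the number called beside each bar. The Slc25 genes have 11 higher and 7 lower, and the bars of respiratory complexes I to IV (5 and 3) and of ATP synthase (0 and 1) are the shortest beside the number measured.

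Promoters of the Slc25 genes were compared for letters that factors of mitochondrial genes are known to bind. RefSeq's table (build GRCm38.p6) held 41 promoters of 32 of the 42 genes, each from 250 bases before to 50 after the start. The E-box CACGTG, which MYC and USF proteins bind and which reads the same on both strands, was in 8 of the 41 (19.5%), against 7.15% of all 32851 promoters in the table. It occurred in 2 of the 9 genes with a promoter that were higher, Slc25a1 and Slc25a33, in 1 of the 5 that were lower, Slc25a13, in 2 of the 11 that were not called, Slc25a14 and Slc25a36, and in 2 of the 7 that were not measured, Slc25a15 and Slc25a31. Of the 8 promoters, 2 are overlapping windows of Slc25a14. The NRF1 palindrome (0.971% of all promoters) and the letters TCAAGGTCA of ERR factors (0.423%), searched on both strands, were in 0 of the 41. The motifs do not overlap each other in these windows. The promoters of the 3 called genes are shown with the E-box in capitals, since the same letters stand before genes that went opposite ways.
Slc25a1, chr16:17928170-17928469, minus strand: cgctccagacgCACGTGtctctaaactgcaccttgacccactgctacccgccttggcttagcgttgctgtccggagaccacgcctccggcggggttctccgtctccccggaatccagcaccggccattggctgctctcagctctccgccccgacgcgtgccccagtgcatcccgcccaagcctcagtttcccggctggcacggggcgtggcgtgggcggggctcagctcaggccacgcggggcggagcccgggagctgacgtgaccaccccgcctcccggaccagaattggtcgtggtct
Slc25a33, chr4:149774218-149774517, minus strand: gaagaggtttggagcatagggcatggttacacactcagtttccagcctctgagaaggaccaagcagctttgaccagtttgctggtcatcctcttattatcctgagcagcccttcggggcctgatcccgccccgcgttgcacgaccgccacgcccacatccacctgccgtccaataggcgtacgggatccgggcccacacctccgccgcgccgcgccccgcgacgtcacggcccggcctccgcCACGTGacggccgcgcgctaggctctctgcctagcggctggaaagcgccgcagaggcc
Slc25a13, chr6:6217124-6217423, minus strand: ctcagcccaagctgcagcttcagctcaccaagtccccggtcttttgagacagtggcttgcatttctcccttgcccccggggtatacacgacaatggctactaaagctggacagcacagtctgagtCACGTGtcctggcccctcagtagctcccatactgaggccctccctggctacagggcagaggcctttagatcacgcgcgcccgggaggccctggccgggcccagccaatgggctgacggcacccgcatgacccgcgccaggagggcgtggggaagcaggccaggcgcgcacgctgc
A match is a description of the letters and says nothing of binding in these cells.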

How the data were processed

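RNA from sorted colon cells was measured on 4 two-colour Agilent arrays. Per the file headers, spots were read with Feature Extraction 10.5.1.1, and the deposited intensity values are the mean brightness of each spot and its local background median, with no normalization. Per the file headers, further intensity values were background-subtracted and dye-normalized by the software, and the deposited log10 ratio is that of red over green. The deposited series table holds, for each array, a log2 ratio of red to green (slopes of 2.91 to 3.30 against the log10 ratio, column medians of -0.01 to 0.03), normalized by a method not given in the sources used here. Per the labels, 300 ng of RNA was labelled.

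In limma 3.58.1 (R 4.3.3), normexp with an offset of 50 corrected the background, leaving out spots of non-uniform background before the fit. Global loess gave weight 0 to control and marked spots, and spots marked by the software as outliers of their own pixels or of their population were dropped, 32648 of 43379 gene spots on swap 1, the dye swap of replicate 1. Swapped arrays were turned, each array was averaged with its swap, and limma tested 2 ratios against 0 (2-sided, 1 residual and 4.53 prior degrees of freedom, Benjamini-Hochberg over 14787 genes). A gene is shown by its brightest kept probe. For the spot signals alone, average intensities were given a shared distribution across arrays after loess (quantile normalisation), which leaves the ratios unchanged. Arrays correlated at r of 0.72 to 0.96 across genes, which are not independent replicates, and the replicates at 0.91. The number of arrays limits the precision. Of the gene spots, 27041 took their name from a RefSeq table (GRCm38.p6) and 16338 kept the file's name.

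The processing, members, gene lists and alternatives were chosen with earlier results of these data known. The rule named every Slc25 gene and, of each other mitochondrial list, the 2 called genes with the largest ratio per direction (a few genes that it picks are counted but not reported here by name), and of cell type markers the counts and medians. Proteins were not used here. The fit was tested on simulated data, which held no dye effect, marked spots or missing arrays and so do not cover these.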

Additional observations from a re-analysis of the deposited data

Results flagged for a closer look

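Among the 18 Slc25 genes with a value on all 4 arrays, 2 had 1 array far from the other 3 by Dixon's ratio (gap over range above 0.829), and chance gives such a value in about 1 of 20 groups. For Slc25a12 it was swap 1, at a log2 ratio of 0.50 against 1.64 to 1.74 on the other arrays (gap over range 0.919). For Slc25a33 it was the same array, at 0.031 against 0.65 to 0.68 (0.966). On that array 75.3% of gene spots were marked as outliers. Its median raw signals were 4377 (Lgr5-GFP-labelled RNA) and 1358 (CD24hi-labelled RNA), against 94 to 197 on the other arrays. Its ratios correlated at r of 0.72 to 0.76 with the other arrays, which correlated at 0.92 to 0.96 with each other. The part of these traits in both values was not tested.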

How the results depend on the processing

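None of the 18 called Slc25 genes changed sign under any alternative that gave a value. Over 542 pairs of a Slc25 gene and an alternative, 484 counted as unchanged, 49 lost a call, 9 gained one and 0 calls turned round. The 484 include the pairs without replicate 1 or without replicate 2, which had no test and so no threshold to cross. Those counted as unchanged when within the SD of the main value, which leaving out 1 of 2 replicates of a probe cannot exceed. The 15 changes of sign were all of genes not called. Slc25a1 and Slc25a12 were called in 15 of 15 tested alternatives, Slc25a4 in 14 of 15 (0.0535 otherwise, with non-uniform backgrounds kept), Slc25a35 in 12 of 13 and Slc25a40 in 11 of 12. The counts of all genes called, and of Slc25 genes higher and lower, were 1386, 2 and 0 with non-uniform backgrounds kept (5796 genes at an unadjusted p under 0.05 by limma, 15 of them Slc25 genes), 3747, 4 and 3 with marked spots kept, and 2739 of 6004, 4 and 4 with a value required on all 4 arrays. Median centring gave 6 Slc25 genes higher. Leaving out single arrays, the counts ran from 977 (without array 1) to 8542 for all genes, from 2 to 13 for Slc25 genes higher and from 1 to 7 for those lower; the first of each range also tested fewer genes (6021, 19 Slc25 genes). Loess fitted with marked spots, an alternative added after seeing the data, called 5566 genes. The median of the Slc25 genes, -0.04, was -0.059 with no background subtraction, -0.021 with non-uniform backgrounds kept, -0.056 with processed signals, -0.19 with median centring, -0.14 with the series table, -0.089 with marked spots kept, -0.00040 with no filter, 0.051 above background in both populations, -0.0098 over all kept probes, -0.063 with a value on all 4 arrays, -0.077 with loess fitted with marked spots, -0.097 to 0.026 leaving out single arrays (-0.0023 and -0.0047 without array 2 and swap 2), and -0.014 and -0.028 without replicate 1 and without replicate 2; the cause was not tested. Median centring, the series table and the processed signals moved the median of all genes to -0.27, -0.17 and -0.16. Leaving out a replicate gave a value with no test. Both RNAs of a replicate share each array, so each tested ratio is already a paired comparison. The labels give 1 group of ratios, so no further pairing was possible. Dim probes limit Slc25a23, Slc25a27, Slc25a30, Slc25a41 and Slc25a45 in the Lgr5-GFP-labelled RNA and Slc25a40 in the CD24hi-labelled RNA.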

Other observations

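The RefSeq table gives Slc25 names to probes that the array names otherwise, and these lay outside the choice of genes by name. They were looked up after the values of the family were seen. Slc25a47 was at 1.33 and 1.48 on array 2 and swap 2 and at 1.08 on array 1, with a mean log2 ratio of 1.24 (limma, adjusted p = 0.00192), higher in the Lgr5-GFP-labelled RNA than in the CD24hi-labelled RNA. Slc25a51, a carrier of NAD, was at -0.19, 0.07, -0.22 and -0.10 on array 1, swap 1, array 2 and swap 2, with a mean of -0.11 (adjusted p = 0.492).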
